A study of Mus musculus with 9 samples.

Results

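The CLK and SRPK kinases and the large SR-related proteins that work with them were followed here through 9 genes, Clk1, Clk2, Clk3, Clk4, Srpk1, Srpk2, Son, Srrm1 and Srrm2, which were chosen by symbol from the 54325 gene symbols of the count table and carry 111 of its 140658 transcripts. CLK kinases phosphorylate serine/arginine-rich (SR) splicing factors in the nucleus, while SRPK kinases act on the same proteins largely in the cytoplasm and promote their import. Son and Srrm2 are scaffolds of nuclear speckles, where splicing factors are stored, and Srrm1 is a splicing coactivator of the same kind. Genes of this pathway are known to make splice forms with a premature stop codon, and such forms are substrates of nonsense-mediated mRNA decay (NMD), the pathway in which the RNA helicase UPF1 becomes phosphorylated (p-UPF1) on RNAs that are being degraded.

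The data were RIP-seq libraries of N2A cells, a mouse neuroblastoma line. All 9 libraries came from cells exposed for 2 h to 200 nM okadaic acid, which inhibits protein phosphatases, and no untreated cells were compared. Input libraries (n = 3) held total RNA, rIgG IP libraries (n = 3) held RNA recovered with control rabbit IgG and p-UPF1 IP libraries (n = 3) held RNA recovered with antibody to p-UPF1, in each case as RNase I fragments of 25 to 50 nt. Independent experiments are stated for western blots of such IPs, while nothing says whether the libraries of a group come from separate cultures, and p-values measure only the spread between these libraries, which may be technical.

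Total counts were 25184464 to 29857955 in the Input, 5312526 to 6246110 in the p-UPF1 IP and 79010 to 474491 in the rIgG IP libraries. A count of 3, taken as the lowest that the depth can show, equals 0.1 to 0.119 CPM (counts scaled to the size of the library) in the Input, 0.480 to 0.565 CPM in the p-UPF1 IP and, for the rIgG IP, 6.32 to 38.0 CPM. This floor covers counting error only, because PCR copies are not independent molecules. The 9 genes took 0.0259 to 0.0402% of the counts of a library. Of 14 neural and neuroblastoma markers, 11 were above the floor in every Input library and Nefl was at 0, with summed counts of 18806 to 21124, against 38 to 54 for 5 glial, 48 to 64 for 5 fibroblast and 1 to 4 for 5 leukocyte markers. No 2 replicate libraries agreed within sampling noise (chi-square of their counts over genes, divided by its degrees of freedom, 3.62 to 15.6).

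The sequences that distinguish the splice forms are given before the counts, because the forms that differed between the libraries are told apart by them. The coordinates and sequences are those of GENCODE M21 on GRCm38, and each set runs 5′ to 3′ on the strand of the gene. In each of the 4 CLK genes the coding transcript shown holds as exon 4 an exon whose length leaves a remainder of 1 when divided by 3, so that skipping it shifts the reading frame. The exon measures 91 nt in Clk1 (chr1:58420121-58420211, minus strand), 88 nt in Clk2 (chr3:89169615-89169702, plus strand), 97 nt in Clk3 (chr9:57758627-57758723, minus strand) and 91 nt in Clk4 (chr11:51273078-51273168, plus strand). Here the exon is in capitals, with 20 bases of the exons before and after it in lower case.
Clk1-201: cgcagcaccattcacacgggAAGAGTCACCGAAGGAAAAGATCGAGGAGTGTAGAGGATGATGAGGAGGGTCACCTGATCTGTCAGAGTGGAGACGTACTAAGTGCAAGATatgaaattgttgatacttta
Clk2-203: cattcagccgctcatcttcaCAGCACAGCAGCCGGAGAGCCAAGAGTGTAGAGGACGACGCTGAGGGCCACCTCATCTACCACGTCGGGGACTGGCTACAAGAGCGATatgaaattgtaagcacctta
Clk3-201: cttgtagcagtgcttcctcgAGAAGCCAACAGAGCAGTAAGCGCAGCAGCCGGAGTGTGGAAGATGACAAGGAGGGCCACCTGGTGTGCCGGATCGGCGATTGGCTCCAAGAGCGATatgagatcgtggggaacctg
Clk4-201: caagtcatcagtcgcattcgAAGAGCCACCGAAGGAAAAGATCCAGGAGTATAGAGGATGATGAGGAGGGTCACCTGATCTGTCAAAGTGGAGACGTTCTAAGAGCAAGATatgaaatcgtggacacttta

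The exons of Clk1 and Clk4 matched at 93.4% of the bases of the shorter in their best alignment without gaps, and those of Clk2 and Clk3 at 69.3%. The other pairs matched at 54.9 to 62.5%. Clk1 and Clk4 thus had the most similar exons, but few stretches of either are found elsewhere: 1.43% of the 35-nt windows of Clk4 and 0.635% of those of Clk1 occur in any other gene.

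Skipping that exon joins its neighbours and, in the NMD forms of Clk1, Clk2 and Clk3, brings an early stop codon. In Clk4-204 and Clk4-212, the NMD forms of Clk4 that skip it, the first stop in the frame of the Clk4-201 start codon lies before that junction. The joined ends are shown for the transcripts annotated as NMD substrates in 3 of the CLK genes and in Srpk1, where the skipped exon is exon 10 of Srpk1-204 (214 nt, chr17:28600243-28600456, minus strand), again with a remainder of 1. The last 20 bases before the junction stand in lower case at the start, and the stop codon is in capitals. The stop follows after 18 nt in Clk1-210, 9 nt in Clk2-204, 87 nt in Clk3-209 and 84 nt in Srpk1-201.
Clk1-210: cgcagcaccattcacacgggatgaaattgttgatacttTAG
Clk2-204: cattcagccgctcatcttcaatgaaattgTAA
Clk3-209: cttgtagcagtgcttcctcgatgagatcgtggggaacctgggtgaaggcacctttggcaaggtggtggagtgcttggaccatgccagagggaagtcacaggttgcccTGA
Srpk1-201: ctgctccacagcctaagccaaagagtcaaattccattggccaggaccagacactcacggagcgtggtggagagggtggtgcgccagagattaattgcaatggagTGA

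In Srrm1, Srrm2 and Son the NMD transcripts instead hold sequence that no coding transcript of the gene has. For Srrm1-204 this is a part of 38 nt (chr4:135338549-135338586, minus strand), shown in capitals between 20 bases on each side. For Srrm2-203 and Srrm2-204 (plus strand of chromosome 17) and for Son-208 (plus strand of chromosome 16), the joined ends run to the stop codon in capitals, 40, 10 and 90 nt past the junction.
Srrm1-204: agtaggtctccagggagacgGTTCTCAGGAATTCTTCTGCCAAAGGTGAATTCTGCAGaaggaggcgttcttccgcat
Srrm2-203: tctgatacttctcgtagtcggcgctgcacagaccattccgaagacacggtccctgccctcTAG
Srrm2-204: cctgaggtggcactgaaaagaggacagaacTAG
Son-208: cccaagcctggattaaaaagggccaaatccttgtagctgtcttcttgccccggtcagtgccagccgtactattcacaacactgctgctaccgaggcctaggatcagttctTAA

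The annotated stop codon lies before 8 exon junctions in Clk1-210 and in Clk2-204, 5 in Srpk1-201, 3 in Son-208 and 1 in each of Srrm2-203 and Srrm2-204, while Srrm1-204 has none after its stop although it is annotated as an NMD substrate.

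The question addressed by the comparison of p-UPF1 IP with Input libraries is which RNAs p-UPF1 binds beyond their abundance. Of the 9 genes, 6 were higher in the p-UPF1 IP than in the Input (Clk1, Clk2, Clk3, Clk4, Srpk1 and Srrm1), 2 were lower (Son and Srrm2) and Srpk2 did not pass the test. Higher and lower mean a Benjamini-Hochberg adjusted p under 0.05 in edgeR's quasi-likelihood test, run on counts summed per gene and adjusted over 16919 genes, of which 26.3% were higher and 35.7% lower. All changes are relative to the scaled size of the libraries, so that a gene can rise while its counts fall. Enriched and depleted mean, in addition, a change beyond 1 on the log2 scale. By that rule 5 members were enriched and 1 was depleted, against 17.3% and 26.5% of all genes. The median log2 fold change was 1.02 over the members and -0.42 over all genes. With library totals in place of TMM scaling, the median of all genes moved to -0.01 and the enriched share of all calls from 39.5% to 56.5%. The libraries hold RNA of whole cultures, so recovery from all cells and recovery from some of them cannot be told apart.

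Clk1 (ENSMUSG00000026034.17, chr1:58410189-58424066, minus strand) had the highest log2 fold change of the 9. Its counts were 158, 166 and 198 in the Input against 220, 266 and 242 in the far shallower p-UPF1 IP libraries. As TMM-scaled CPM it rose from 7.41 ± 0.540 to 36.0 ± 1.66 (SD, n = 3), and the lowest p-UPF1 IP library stood above every Input library. The log2 fold change was 2.28 (SE 0.0873, adjusted p = 9.6e-09 by edgeR). Clk4 (ENSMUSG00000020385.16, chr11:51261730-51281766, plus strand), its closest relative by exon sequence, had 129, 117 and 119 counts in the Input against 102, 170 and 137 in the p-UPF1 IP. Its level rose from 5.20 ± 0.416 to 20.0 ± 3.08 CPM (SD, n = 3), with no overlap between the groups. The log2 fold change of Clk4 was 1.95 (SE 0.124, adjusted p = 3.44e-07 by edgeR).

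Clk2 and Clk3, kinases of the same family, also rose. The counts of Clk2 (ENSMUSG00000068917.12, chr3:89164795-89176921, plus strand) were 68, 63 and 77 in the Input against 30, 43 and 49 in the p-UPF1 IP, and its level went from 2.95 ± 0.139 to 5.97 ± 0.912 CPM. Clk3 (ENSMUSG00000032316.8, chr9:57750624-57765860, minus strand) had 92, 95 and 114 counts in the Input against 62, 60 and 56 in the p-UPF1 IP, and its level went from 4.27 ± 0.290 to 8.88 ± 1.42 CPM. Neither gene had overlapping groups. The log2 fold changes were 1.02 (SE 0.160, adjusted p = 0.000286) for Clk2 and 1.04 (SE 0.143, adjusted p = 0.000106) for Clk3 by edgeR.

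Of the SRPK kinases, Srpk1 passed the test and Srpk2 did not, and the difference between them was not tested. Srpk1 (ENSMUSG00000004865.16, chr17:28587648-28622709, minus strand) had 387, 421 and 467 counts in the Input against 163, 197 and 161 in the p-UPF1 IP, or 18.1 ± 1.13 and 25.8 ± 2.7 CPM. Its p-UPF1 IP libraries all stood above its Input libraries, and it rose by 0.51 on the log2 scale (SE 0.0960, adjusted p = 0.00103 by edgeR). Srpk2 (ENSMUSG00000062604.11, chr5:23503264-23684617, minus strand) had 297, 312 and 343 counts in the Input against 76, 99 and 92 in the p-UPF1 IP, or 13.5 ± 0.548 and 13.1 ± 0.386 CPM. The groups of Srpk2 overlapped, and its log2 fold change was -0.04 with a 95% interval of -0.21 to 0.12 (adjusted p = 0.729 by edgeR). With library totals alone, Srpk2 stood at 0.37 (adjusted p = 0.00792 by edgeR), so its call rests on the scaling.

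The 3 SR-related proteins had the highest counts of the 9 genes in the Input. Srrm1 (ENSMUSG00000028809.16, chr4:135320484-135353321, minus strand) had 560, 592 and 646 counts in the Input against 330, 422 and 331 in the p-UPF1 IP. Its level rose from 25.6 ± 1.09 to 53.5 ± 6.02 CPM (log2 fold change 1.06, SE 0.0916, adjusted p = 3.21e-06 by edgeR). The other two stood lower in every p-UPF1 IP library than in any Input library. Son (ENSMUSG00000022961.18, chr16:91647506-91679221, plus strand) had 2127, 2089 and 2411 counts in the Input against 276, 360 and 308 in the p-UPF1 IP, and fell from 94.2 ± 2.29 to 46.5 ± 3.01 CPM (log2 fold change -1.02, SE 0.0723, adjusted p = 7.75e-07 by edgeR). Srrm2 (ENSMUSG00000039218.17, chr17:23790532-23824741, plus strand) had 3853, 3569 and 4162 counts in the Input against 616, 807 and 737 in the p-UPF1 IP, and fell from 165 ± 4.58 to 106 ± 3.84 CPM (log2 fold change -0.63, SE 0.0649, adjusted p = 1.24e-05 by edgeR). The calls of these 8 genes, all but Srpk2, kept their direction and their side of the threshold under all 13 alternatives run for this comparison, among them each of the 6 libraries left out. The sizes varied more, from -1.10 to -0.61 on the log2 scale for Son and from -0.71 to -0.22 for Srrm2. Clk2, Clk3 and Srrm1 went down to 0.93, 0.96 and 0.99. Whether these 3 genes count as enriched and Son as depleted thus rests on the processing.

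**Figure D1:**
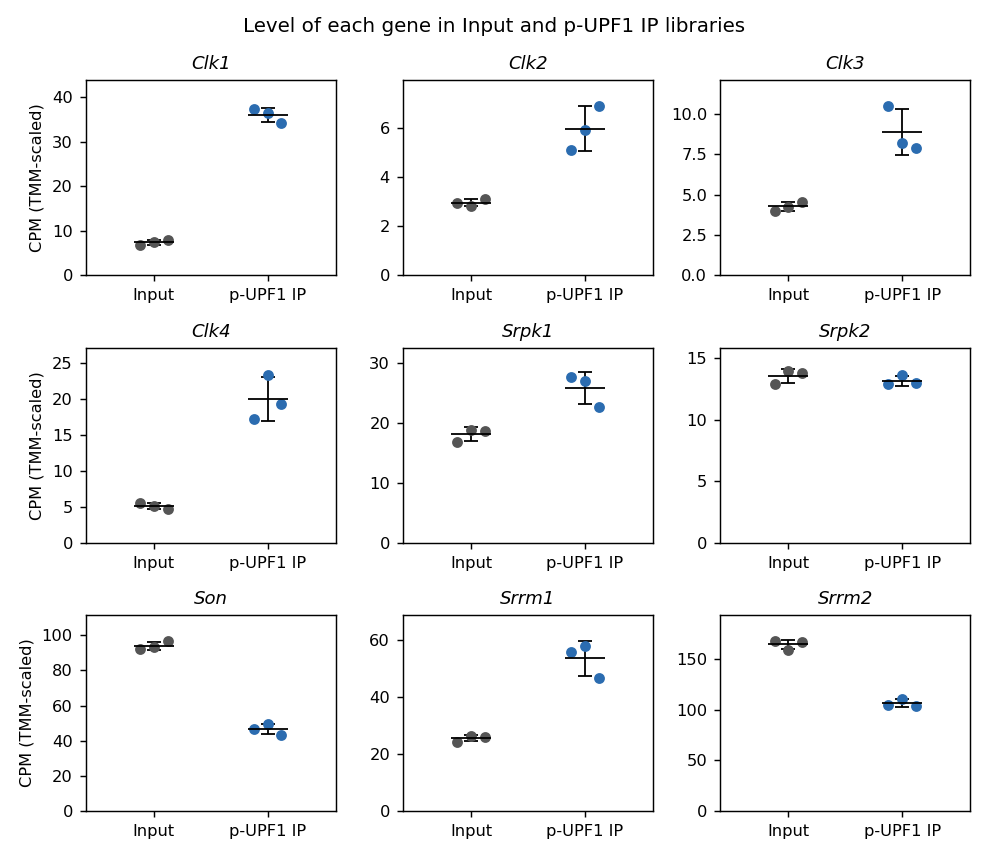
TMM-scaled CPM (y axis, from 0, a scale of its own for each gene) of the 9 genes in the 3 Input and 3 p-UPF1 IP libraries; points are libraries, horizontal lines are means and bars are ± 1 SD. Clk1 and Clk4 stand farthest above their Input libraries, Son and Srrm2 stand below theirs, and the groups of Srpk2 overlap.

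Overlapping genes limit how some of these values can be read. Edc3, Kmt2e, Donson and Elob have exons antisense to those of Clk3, Srpk2, Son and Srrm2, in that order, and since the use of strand in the counting is not given in the sources used here, reads from each pair cannot be told apart. Gm25082 overlaps exons of Clk4 on the same strand. Of the 35-nt windows of a member, 0% (Son) to 5.83% (Srpk1) occur in another gene, among them 3.86% of those of Srrm1, shared mostly with Gm18722, and 2.59% of those of Srrm2, shared with Gm16581. How far such reads bear on the counts was not tested.

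The comparison with the rIgG IP asks which RNAs were recovered by the antibody beyond what control IgG recovered, and it uses the same p-UPF1 IP libraries again. It called Clk1, Clk3, Clk4, Srpk1 and Srrm1 higher in the p-UPF1 IP, 5 of 9 members against 17.9% of 12033 genes. None was called lower, against 5.59% of genes. Srrm2 was the only member lower at an unadjusted p under 0.05, and DESeq2 called it lower, at -0.70. The median log2 fold change was 1.44 over the members and 0.89 over all genes. The enriched share of all calls was 76.6% with TMM, 64.6% with RLE scaling and 56.7% in DESeq2.

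The rIgG libraries held few counts of the kinases. Clk1 had 2, 0 and 0 counts there, and its ratio of p-UPF1 IP to rIgG IP was 16.4 with a counting interval of 4.52 to 136 (log2 fold change 4.02, SE 0.602, adjusted p = 1.91e-05 by edgeR). Clk4 was at 0 in all 3 rIgG libraries, so it entered this test through its p-UPF1 IP counts alone. For Clk4 the p-UPF1 IP was at least 6.14-fold higher against a floor of 3 counts over the group (adjusted p = 0.000223 by edgeR). These calls held under all alternatives run, but all rIgG counts of Clk1 lay in replicate 1. With 1 of the other libraries left out its log2 fold change was as low as 3.45, and without replicate 1 no rIgG count was left to set a fold against. Clk3, with 0, 1 and 0 counts, had a ratio of 8.02 (1.42 to 319) and an adjusted p of 0.0301 by edgeR, which was lost under 6 of 13 alternatives, among them DESeq2 (0.0928), RLE scaling (0.0656), filterByExpr (0.0657) and the fits without rIgG replicate 1 (0.293) or replicate 3 (0.0878). Clk2, with 1, 1 and 0 counts, had a ratio of 2.75 (0.745 to 23.0) and was not called (adjusted p = 0.228 by edgeR).

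Srpk1 had 4, 3 and 0 counts in the rIgG IP and a log2 fold change of 1.75 (SE 0.478, adjusted p = 0.00898 by edgeR), and Srrm1 had 9, 7 and 3 counts and a log2 fold change of 1.36 (SE 0.318, adjusted p = 0.00261 by edgeR). Both calls were lost without rIgG replicate 1, the deepest of the 3, at adjusted p = 0.0783 and 0.0697 by edgeR, and without it 2 members were called higher. Srpk2 (2, 4 and 0 counts, log2 fold change 1.00, adjusted p = 0.210), Son (20, 13 and 4 counts, 0.20, adjusted p = 0.583) and Srrm2 (85, 31 and 17 counts, -0.42, adjusted p = 0.122) were not called by edgeR. Srrm2 was called lower under 5 of 13 alternatives, namely DESeq2, RLE scaling, library totals alone, filterByExpr and the fit without rIgG replicate 3, at -0.76 to -0.52, so its call rests on these choices.

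In the rIgG IP over the Input, which shows what IgG alone recovered, edgeR called 0 of the 9 members, against 0.897% of 16280 genes in either direction. Clk4 and Son were lower at an unadjusted p under 0.05, DESeq2 called 0, and the other alternatives called 0 or 1. Son stood at 94.4 ± 1.84 CPM in the Input and 46.2 ± 14.3 CPM in the rIgG IP (log2 fold change -0.96, adjusted p = 0.0993 by edgeR). In the fit that holds both kinds of IP, with a scaling of its own, Son stood at 48.5 ± 13.5 CPM in the rIgG IP and 58.7 ± 3.91 CPM in the p-UPF1 IP, the difference that was not called above. Srrm1 (-0.03) and Srrm2 (0.03) had log2 fold changes near 0 in this comparison.

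**Figure D2:**
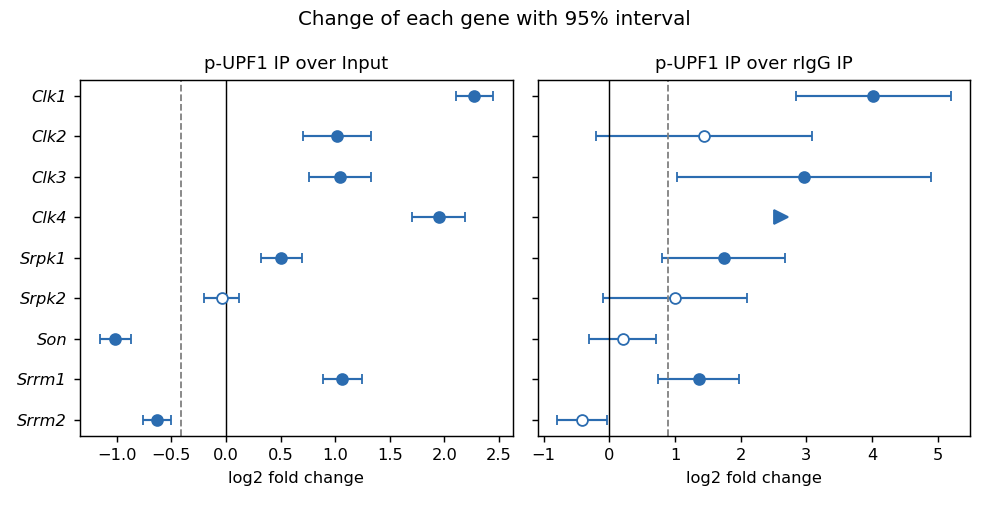
Log2 fold change (x axis) of each gene in the p-UPF1 IP over Input (left) and over rIgG IP (right); bars are normal 95% intervals, filled points were called by edgeR, dashed lines mark the median of all genes and the triangle is the lower bound for Clk4, which had no rIgG counts. Clk1 lies farthest to the right among the points of both panels, Son and Srrm2 lie left of 0 in the left panel, and the intervals over the rIgG IP are wide.

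The counts were then divided by the annotated type of the transcript to see which forms of each gene the differences came from. The types used were coding, NMD (annotated as a substrate of nonsense-mediated decay), retained intron and processed transcript, and the type is an annotation of the form, not a measure of its decay. Of 31 gene and class combinations of the members that could be tested, 9 were higher and 6 lower in the p-UPF1 IP than in the Input, against 17.5% and 26.3% of 26363 such combinations over all genes. NMD counts were higher for Clk1, Srpk1, Srrm1 and Srrm2 and lower for Son, and did not pass the test for Clk2, Clk3, Clk4 and Srpk2. Most fragments cannot tell the classes apart, and Salmon divided them by model: only 1.94% of the 35-nt windows of the Clk1 NMD forms, 1.72% of those of Srpk1, 7.18% of those of Srrm1, 16.5% of those of Srrm2 and 5.99% of those of Son occur in no other class of the gene.

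Srrm2, lower as a gene, had NMD forms that rose. They had 10, 11 and 15 counts in the Input against 63, 89 and 79 in the p-UPF1 IP, so that every p-UPF1 IP library held more counts than any Input library despite its lower depth. Their log2 fold change was 4.31 (SE 0.196, adjusted p = 1.72e-05 by edgeR), and their share of the gene's counts was 0.309% ± 0.0504 in the Input and 10.7% ± 0.404 in the p-UPF1 IP (SD, n = 3). The coding forms of Srrm2 had 3137, 2854 and 3458 counts in the Input against 550, 654 and 601 in the p-UPF1 IP and fell by 0.73 on the log2 scale (adjusted p = 0.000425 by edgeR). The processed transcript, Srrm2-205, went from 667, 616 and 652 counts to 0, 8 and 2 (log2 fold change -5.92, SE 0.492, adjusted p = 0.000177 by edgeR). Srrm2 thus held a class that rose and classes that fell in the same libraries. With library totals alone the coding forms stood at -0.18 (adjusted p = 0.0848 by edgeR).

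Srrm1 had the largest change of an NMD class. Its NMD forms had 3, 2 and 0 counts in the Input against 42, 56 and 49 in the p-UPF1 IP, with a log2 fold change of 6.37 (SE 0.601, adjusted p = 0.000306 by edgeR) and a share that went from 0.291% ± 0.271 to 13.6% ± 1.08. Its coding forms also rose, from 378, 419 and 576 to 258, 352 and 264 counts (log2 fold change 1.01, adjusted p = 0.00371 by edgeR). The NMD share of Srrm1 was at most 0.536% in an Input library and at least 12.7% in a p-UPF1 IP library. Its retained-intron forms had 179, 158 and 70 counts in the Input against 24, 8 and 13 in the p-UPF1 IP, at a log2 fold change of -1.49 (adjusted p = 0.0739 by edgeR). The NMD form Srrm1-204 shares its added part with the retained-intron form Srrm1-214. Srrm1-214 went from 63, 65 and 19 counts to 0, 1 and 3. Both forms together had 66, 65 and 19 counts in the Input against 42, 57 and 51 in the p-UPF1 IP. Only 4.33% of the windows of Srrm1-204 and 37.7% of those of Srrm1-214 are their own. The sizes of the NMD and retained-intron changes thus depend on how Salmon divided shared fragments.

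Clk1 had no count on its coding transcript in any library. This 0 is a division of shared fragments by Salmon and sets no upper limit on the coding form, since only 1.82% of the 35-nt windows of that form occur in no other class of the gene. Its NMD forms had 53, 60 and 68 counts in the Input against 188, 157 and 186 in the p-UPF1 IP (log2 fold change 3.22, SE 0.174, adjusted p = 3.16e-05 by edgeR). Its retained-intron forms had 74, 88 and 104 counts in the Input against 9, 44 and 6 in the p-UPF1 IP, at -0.55 (adjusted p = 0.523 by edgeR). The NMD share of Clk1 rose from 34.7% ± 1.33 to 73.8% ± 13.5, while the retained-intron share went from 50.8% ± 3.43 to 7.70% ± 7.70, with no overlap between the groups in either. Its processed transcripts, with 31, 18 and 26 counts in the Input against 23, 65 and 50 in the p-UPF1 IP, rose too (2.50, adjusted p = 0.00236 by edgeR).

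Srpk1 held coding and NMD forms that moved apart. The coding forms had 151, 225 and 213 counts in the Input against 8, 14 and 2 in the p-UPF1 IP, a log2 fold change of -2.95 (SE 0.515, adjusted p = 0.00447 by edgeR). The NMD form, Srpk1-201, had 173, 175 and 178 counts in the Input against 98, 114 and 107 in the p-UPF1 IP (0.94, SE 0.0890, adjusted p = 0.000315 by edgeR). Coding and NMD forms were near each other in the Input, at 46.0% ± 7.22 and 41.5% ± 3.29 of the gene, and stood at 4.42% ± 2.96 and 61.5% ± 4.45 in the p-UPF1 IP. The retained-intron forms rose as well, from 63, 21 and 76 to 57, 69 and 52 counts (1.83, adjusted p = 0.0156 by edgeR).

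Son was the member whose NMD class was called lower. Its NMD forms had 618, 812 and 585 counts in the Input against 44, 10 and 0 in the p-UPF1 IP (log2 fold change -3.51, SE 0.858), and their share went from 30.7% ± 7.45 to 6.24% ± 8.52. The adjusted p was 0.0177 by edgeR, 0.0553 in DESeq2 and 0.0651 without p-UPF1 IP replicate 2. Most of the p-UPF1 IP counts lay in replicate 1, without which the log2 fold change was -5.44. The coding forms of Son fell from 1374, 1084 and 1617 to 225, 325 and 302 counts (-0.60, adjusted p = 0.0128 by edgeR) and stood at -0.05 with library totals alone (adjusted p = 0.763). Its retained-intron forms fell from 56, 68 and 83 to 4, 0 and 3 counts (-3.16, adjusted p = 0.0179), and were not called under 2 of 13 alternatives, among them without Input replicate 3 (adjusted p = 0.0593, both by edgeR).

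In Clk3 and Clk4 the forms annotated as coding rose. Those of Clk4 had 57, 74 and 73 counts in the Input against 80, 130 and 110 in the p-UPF1 IP (2.29, SE 0.168, adjusted p = 0.000106 by edgeR), and those of Clk3 had 54, 57 and 64 and then 41, 53 and 50 (1.37, SE 0.152, adjusted p = 0.000623 by edgeR). In both genes the coding share was higher in each p-UPF1 IP library than in any Input library, but the use of the coding class within the gene was not called (0.46, adjusted p = 0.585 for Clk3 and 0.48, adjusted p = 0.372 for Clk4, by edgeR). No class of Clk2 was called: its NMD form had 51, 47 and 43 counts in the Input against 27, 0 and 9 in the p-UPF1 IP, and its coding forms 9, 4 and 7 and then 0, 29 and 22. No class of Srpk2 was called either, and its NMD form had 0, 0 and 176 counts in the Input against 0, 2 and 0 in the p-UPF1 IP, so that 1 library held nearly all of them.

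**Figure D3:**
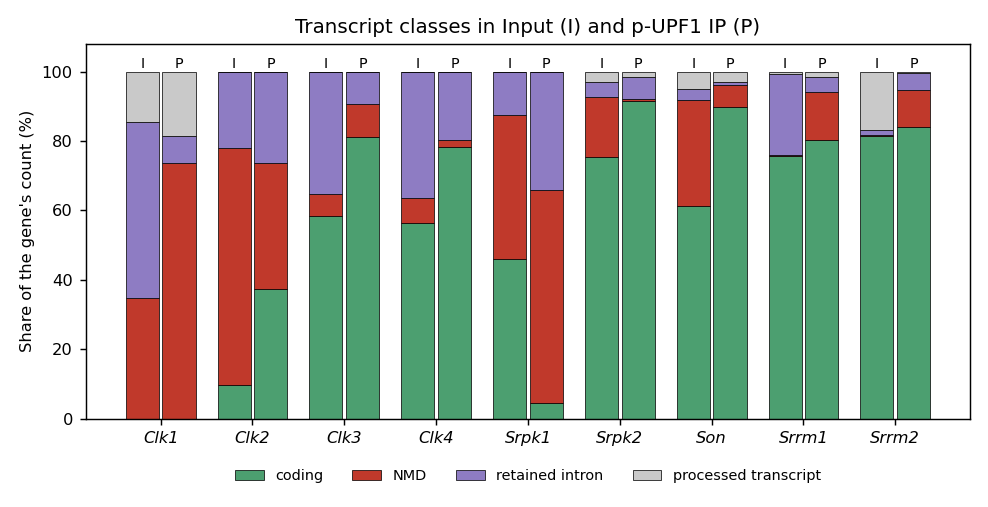
Mean share of each gene's counts (y axis, percent) on coding, NMD, retained-intron and processed transcripts in the 3 Input (I) and 3 p-UPF1 IP (P) libraries. The NMD part of Clk1, Srpk1, Srrm1 and Srrm2 is larger in the p-UPF1 IP and that of Son is smaller, and Clk1 has no coding part. The mean NMD part also falls in Clk2 (68.5% to 36.1%), Clk4 and Srpk2 and rises in Clk3. In each of these genes the Input and p-UPF1 IP libraries overlap and the NMD class was not called.

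**Figure D4:**
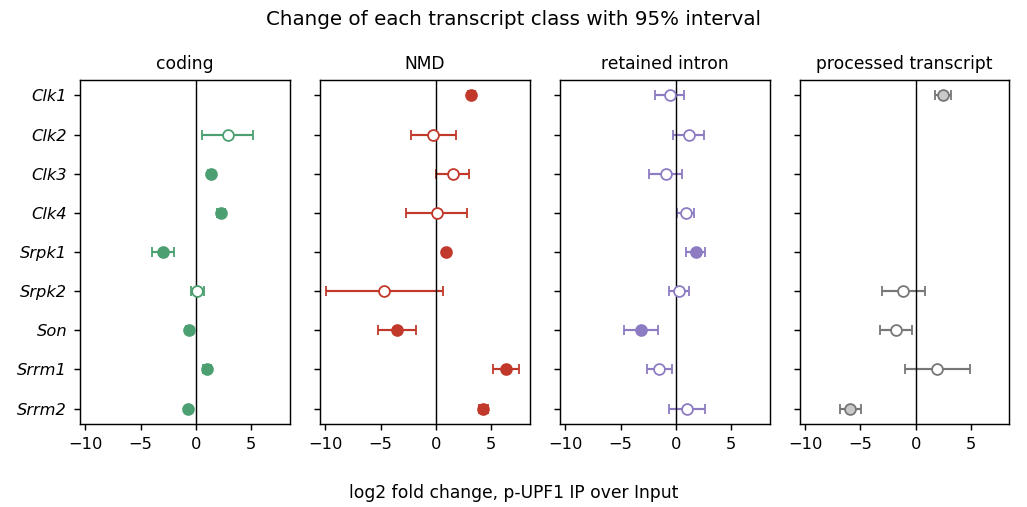
Log2 fold change (x axis) in the p-UPF1 IP over the Input for each transcript class of each gene; bars are normal 95% intervals and filled points passed edgeR's test over all gene and class combinations. The filled NMD points of Clk1, Srpk1, Srrm1 and Srrm2 lie right of 0 and that of Son left of 0.

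Whether a class changed its use within the gene was tested with edgeR's diffSpliceDGE, which sets the change of a class against that of the gene. Of 16564 classes in genes with more than 1 class, 8.05% were used more and 7.92% less in the p-UPF1 IP. Of 31 member classes, 4 were used more, namely the NMD classes of Clk1 (1.08 on the log2 scale, adjusted p = 0.0147 by edgeR), Srrm1 (5.44, adjusted p = 0.000148) and Srrm2 (5.08, adjusted p = 6.86e-06) and the retained-intron class of Srpk1 (1.46, adjusted p = 0.0254). Used less were 5, namely the coding class of Srpk1 (-3.32, adjusted p = 0.000198 by edgeR), the processed class of Srrm2 (-5.16, adjusted p = 8.31e-07), the retained-intron classes of Clk1 (-2.69, adjusted p = 0.00348) and Srrm1 (-2.41, adjusted p = 0.00671) and the NMD class of Son (-2.35, adjusted p = 0.00764). The NMD class of Srpk1 was not called for use (0.57, adjusted p = 0.209 by edgeR). The call of the Clk1 NMD class was lost without Input replicate 1 (adjusted p = 0.0721), Input replicate 3 (0.0556) or p-UPF1 IP replicate 1 (0.0641), and without p-UPF1 IP replicate 2 the calls of the Son NMD (0.0561) and Srrm1 retained-intron (0.0578) classes were lost, all by edgeR. Without p-UPF1 IP replicate 1 the use of the Son NMD class stood at -4.34. For the retained-intron class of Srpk1, leaving out replicate 1 or 2 of either group ended the call (adjusted p = 0.0560 to 0.0991 by edgeR).

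Over the rIgG IP, 9 of 27 testable member classes were higher and 1 was lower, against 14% and 2.66% of 16835. The NMD classes of Clk1, Srpk1, Srrm1 and Srrm2, which were higher over the Input, were at 0 in all rIgG libraries. They therefore entered this test through their p-UPF1 IP counts alone. The 3 rIgG libraries held 758678 counts together, against 81066387 in the Input. At that depth, classes with as few Input counts as those of Srrm1 (5) and Srrm2 (36) could hardly be seen. The calls are therefore no separate support for the comparison with the Input. The NMD classes of Clk1, Srpk1, Srrm1 and Srrm2 were at least 9.13-fold (adjusted p = 0.0120), 5.48-fold (adjusted p = 0.0103), 2.53-fold (adjusted p = 0.0239) and 3.97-fold (adjusted p = 0.0151) higher in the p-UPF1 IP, in that order, by edgeR and against a floor of 3 counts over the group. The others were coding Clk4 (at least 5.5-fold), Srpk1 retained intron (at least 3.06-fold), coding Clk3 (at least 2.47-fold), coding Srpk2 (ratio 6.29, counting interval 1.72 to 52.2) and coding Srrm1 (log2 fold change 1.47, adjusted p = 0.0234 by edgeR). The processed class of Srrm2 was lower (-5.08, adjusted p = 0.0208 by edgeR), and without rIgG replicate 1 it stood at -3.42 (adjusted p = 0.296). With any 1 of the 6 libraries left out, 3 to 8 member classes were called higher, and the Clk1 NMD, Clk4 coding and Srpk1 NMD calls held in each such fit. The Srrm2 NMD call was lost without p-UPF1 IP replicate 3 (adjusted p = 0.0542 by edgeR), and the Srrm1 NMD, Clk3 coding and Srpk1 retained-intron calls without rIgG replicate 1 or any p-UPF1 IP library (0.0594 to 0.0682). The Srpk2 coding call was lost without rIgG replicate 2 or 3 or any p-UPF1 IP library (0.0558 to 0.0849), and the Srrm1 coding call without rIgG replicate 1 or any p-UPF1 IP library (0.0591 to 0.103).

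Among single transcripts, 83 of the 111 could be tested, and 11 were higher and 8 lower, against 4025 higher and 7335 lower of 42616 transcripts over all genes. By the rule with a log2 fold change beyond 1, 10 were enriched and 6 depleted, against 8.55% and 16.2% of these 42616. Only the calls of Clk1-210, Clk4-203, Srrm2-201 and Srrm2-203 held under all alternatives run, and each of the other 15 was lost under at least 1 of them. The spread between replicates was large at this level, with a biological coefficient of variation of 96.7% against 12.4% for genes. Clk1-210, the form whose junction was shown above, was at 0 throughout the Input and had 140, 151 and 171 counts in the p-UPF1 IP, at least 433-fold higher against a floor of 3 counts over the group (adjusted p = 0.000391 by edgeR). The other NMD form, Clk1-211, which skips the same exon and another of 167 nt, had 53, 60 and 68 counts in the Input against 48, 6 and 15 in the p-UPF1 IP, and the most-counted Clk1 transcript was Clk1-211 in the Input and Clk1-210 in the p-UPF1 IP. No 35-nt window of Clk1-210 is its own, so how its counts were divided from those of Clk1-211 rests on the model. Clk1-203, a processed transcript, rose from 6, 4 and 17 to 23, 38 and 50 counts (3.51, adjusted p = 0.0116 by edgeR), and 75.3% of its windows are its own.

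In Srpk1 and Srrm1 some transcripts were counted in 1 group only. Srpk1-204, which holds the 214-nt exon, had 124, 156 and 175 counts in the Input and 0 in each p-UPF1 IP library, at least 53.9-fold lower (adjusted p = 0.00181 by edgeR). Srpk1-212, a retained-intron form with the exon, went from 0 in each Input library to 26, 44 and 30 (at least 93.8-fold higher, adjusted p = 0.00273 by edgeR). None of the windows of Srpk1-212 and 4.81% of those of Srpk1-204 are their own, so that the counts at 0 and the bounds depend on how Salmon divided shared fragments between such forms. Srpk1-201, which skips it, rose by 0.77 on the log2 scale (adjusted p = 0.00658 by edgeR). The coding form Srrm1-203 went from 171, 240 and 197 counts to 0 in each p-UPF1 IP library (at least 72.0-fold lower, adjusted p = 0.00161 by edgeR), while 2 other coding forms rose. The most-counted coding form in the p-UPF1 IP, Srrm1-208, had 60, 28 and 251 counts in the Input against 72, 119 and 68 in the p-UPF1 IP, so that 1 Input library stood apart. The forms that rose were Srrm1-211, from 0 to 67, 63 and 60 counts (at least 178-fold higher, adjusted p = 0.00123), and Srrm1-202, from 8, 0 and 0 to 68, 87 and 76 (6.23, adjusted p = 0.0247), by edgeR. The call of Srrm1-202 was lost without any 1 of the p-UPF1 IP libraries (adjusted p = 0.0518 to 0.0553 by edgeR). Only 3.70% of the windows of Srrm1-211, 0.836% of those of Srrm1-202 and 3.11% of those of Srrm1-203 are their own. The counts at 0 and the bounds of these Srrm1 forms thus also depend on how Salmon divided shared fragments.

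The forms with added sequence followed their classes. Srrm1-204, which holds the 38-nt part, had 3, 0 and 0 counts in the Input against 42, 56 and 48 in the p-UPF1 IP, a ratio of 137 with a counting interval of 45.9 to 672 (adjusted p = 0.0107 by edgeR). The same part lies in the retained-intron form Srrm1-214, and the sum of both forms was 66, 65 and 19 counts in the Input against 42, 57 and 51 in the p-UPF1 IP. Srrm2-203 rose from 10, 11 and 15 to 50, 63 and 56 counts (3.71, SE 0.248, adjusted p = 0.000510 by edgeR), and 31.7% of its 35-nt windows are its own. Srrm2-204 went from 0 to 13, 26 and 23 counts (at least 58.1-fold higher, adjusted p = 0.00538 by edgeR). Its upstream junction is also that of Srrm2-205, and the sum of both forms fell from 667, 616 and 652 counts to 13, 34 and 25. Srrm2-201, the most-counted coding form, went from 2941, 2659 and 3294 to 485, 575 and 525 counts (-0.99, SE 0.0791, adjusted p = 0.000852 by edgeR).

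Son-208, the NMD form with 90 nt between junction and stop, had 575, 777 and 566 counts in the Input against 41, 0 and 0 in the p-UPF1 IP, and only 0.369% of its windows are its own. Son-201, the most-counted transcript of Son in both groups, had 761, 613 and 912 and then 93, 147 and 196 counts (-0.91, adjusted p = 0.0391 by edgeR), a call lost under 10 of 13 alternatives, among them without any 1 of 5 libraries (adjusted p = 0.0561 to 0.128 by edgeR). Son-202 went from 115, 81 and 161 counts to 0 (at least 42.3-fold lower, adjusted p = 0.00379 by edgeR), and it too has no window of its own. Of the other forms called, Clk3-206 rose from 12, 21 and 14 to 34, 29 and 25 counts (2.40, adjusted p = 0.00970 by edgeR), and Clk4-211 and Son-213 fell from low counts, by calls that no fit without 1 library kept (adjusted p = 0.0586 to 0.116 by edgeR). Srpk2-201, the main form of Srpk2, had 277, 288 and 137 counts in the Input against 69, 88 and 85 in the p-UPF1 IP. The most-counted form of Clk2 was Clk2-204 in both groups. The most-counted form of Clk3 in the Input was the retained-intron form Clk3-208, with 26, 23 and 35 counts there and 8, 4 and 1 in the p-UPF1 IP.

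The exons and the added parts shown above were followed by adding the counts of all transcripts that skip them and of all that hold them. These are counts as Salmon divided them between transcripts, not reads counted over the junctions. For Clk1, skipping transcripts had 53, 72 and 75 counts in the Input against 188, 163 and 186 in the p-UPF1 IP, while holding transcripts had 50, 49 and 63 and then 1, 30 and 5. Skipping forms made up 55.1% ± 4.08 of these counts in the Input and 93.8% ± 8.13 in the p-UPF1 IP (SD, n = 3), and the groups did not overlap. With the coding form Clk1-201 at 0, all holding counts of Clk1 lay on retained-intron forms, so no coding form entered this share. For Clk4, skipping transcripts had 15, 69 and 45 counts in the Input against 74, 127 and 93 in the p-UPF1 IP, and holding transcripts 31, 39 and 24 and then 0, 3 and 24. The share was 53.9% ± 18.5 in the Input and 92.4% ± 11.2 in the p-UPF1 IP, again without overlap. Of the holding forms of Clk4, the retained-intron form Clk4-213 had 27, 21 and 14 counts in the Input against 0, 0 and 3 in the p-UPF1 IP.

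The skipping counts of Clk4 came mostly from Clk4-203, with 15, 56 and 45 counts in the Input against 74, 122 and 89 in the p-UPF1 IP (2.77, SE 0.511, adjusted p = 0.0131 by edgeR). This transcript is annotated as coding although it lacks the exon. Its annotated start codon lies at position 373, after the junction at position 307, and it does not hold the start codon of Clk4-201. The 3 NMD forms of Clk4 together had 0, 13 and 13 counts in the Input against 0, 5 and 4 in the p-UPF1 IP. As Salmon divided the counts, the rise of coding Clk4 forms thus lay largely in Clk4-203. That form skips the exon which the NMD form of Clk1 skips. Only 2.13% of the windows of Clk4-203 are its own, so its counts depend on how Salmon divided shared fragments. The coding form Clk4-202 had 38, 0 and 18 counts in the Input against 6, 5 and 0 in the p-UPF1 IP. Clk4-201 had 0, 18 and 10 and then 0, 3 and 21.

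For Srpk1, skipping transcripts had 173, 175 and 178 counts in the Input against 98, 114 and 107 in the p-UPF1 IP, and holding transcripts 164, 182 and 223 and then 53, 61 and 43. The skipping share was 48.2% ± 3.54 and 67.1% ± 3.65, without overlap. Clk3 had few skipping counts, 5, 9 and 5 in the Input against 10, 2 and 5 in the p-UPF1 IP, and its shares (12.8% ± 6.31 and 30.7% ± 31.4) overlapped. Clk2 had 51, 47 and 43 skipping counts in the Input against 27, 0 and 9 in the p-UPF1 IP, and its holding counts of 0, 0 and 2 and then 0, 6 and 0 were too few for a share to be compared. For the 38-nt part of Srrm1, skipping transcripts made up 85.0% ± 9.56 of these counts in the Input and 76.4% ± 2.29 in the p-UPF1 IP. For the 80-nt part of Son, holding transcripts had 736, 938 and 736 counts in the Input against 48, 35 and 3 in the p-UPF1 IP, and skipping transcripts 144, 99 and 165 and then 47, 57 and 52. Transcripts that hold this part of Son thus outnumbered those that skip it in each Input library, and not in every p-UPF1 IP library. With 3 libraries a group an exact permutation test cannot go below p = 0.1, so these shares are given as a description. How often such shares do not overlap over all genes was not counted.

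**Figure D5:**
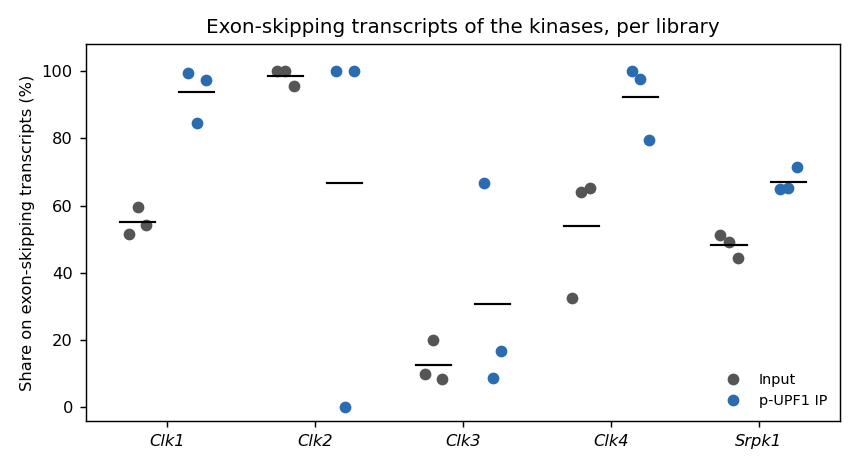
Share (y axis, percent) of the counts on transcripts that skip the exon among those that skip or hold it, for the CLK genes and Srpk1; points are libraries and lines are means of 3. In Clk1, Clk4 and Srpk1 every p-UPF1 IP library lies above every Input library, while the points of Clk2 and Clk3 are spread and rest on few counts. Counts are as Salmon divided them, and holding counts include retained-intron forms, which for Clk1 are all of them.

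To compare levels between the genes, counts were divided by transcript length (as TPM, computed here from the annotated lengths). In the Input, Srrm2 stood highest at 23.5 ± 1.44 TPM (SD, n = 3), followed by Srrm1 (13.8 ± 3.34), Son (11.5 ± 0.898), Srpk1 (6.21 ± 0.330), Clk1 (3.62 ± 0.0816), Clk4 (2.74 ± 0.448), Srpk2 (1.77 ± 0.219), Clk3 (1.74 ± 0.267) and Clk2 (1.08 ± 0.0835). Srrm1 and Son, and Srpk2 and Clk3, had overlapping ranges, and the other neighbours in this order did not overlap. The SR-related proteins thus stood above the kinases, and the order among the middle genes depends on length, because with the longest transcript of each gene in place of those counted only 4 members kept their rank. In the p-UPF1 IP, Clk1 was at 15.5 ± 2.52 TPM and Clk4 at 9.40 ± 1.93 TPM, behind only Srrm2 (28.6 ± 2.45) and Srrm1 (27.3 ± 1.91). By this measure Srrm2 stood higher in the p-UPF1 IP than in the Input, although its TMM-scaled CPM fell. TPM has no TMM scaling and divides by the length of the transcripts counted, and why the measures differ was not tested.

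Genes with a like pattern over all 9 libraries were sought among 223 genes with a mean count of at least 20 in every group, by the distance between their log2(CPM + 1) values, each centred on its own mean. For Srrm2 these were Ret (0.419), Tmem38b (0.458) and Eef2 (0.467). For Srpk1 they were Rpl7a (1.28), Rpl10a (2.15) and Gm42566 (2.21), and for Clk1 Snord69 (2.49), AA474408 (3.21) and Scd2 (3.23). The distances of Srpk1 and Clk1 are large next to those of Srrm2, and both genes themselves fall below the count minimum in the rIgG IP.

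The wider pathway was described with 3 lists. Of 13 SR proteins, the substrates of these kinases, 12 could be tested over the Input, and 3 were higher and 6 lower, against 26.3% and 35.7% of all genes, with a median log2 fold change of -0.47 (all genes -0.42). The share that was higher is near that of all genes. Those with the smallest p all fell and encode SR splicing factors: Srsf3 from 79.7 ± 11.5 to 12.7 ± 2.10 CPM (log2 fold change -2.66, adjusted p = 8.44e-08), Srsf7 from 43.0 ± 2.7 to 12.0 ± 1.80 CPM (-1.85, adjusted p = 1.75e-07) and Srsf1 from 49.6 ± 2.18 to 16.6 ± 2.09 CPM (-1.59, adjusted p = 2.17e-07), by edgeR. Of 13 other kinases related to CLK and SRPK or known to phosphorylate splicing proteins, 11 could be tested, and 3 were higher, again a share near that of all genes, and 7 lower (median -0.84). Hipk1 fell by 1.21 on the log2 scale (adjusted p = 4.78e-07 by edgeR), Hipk2 by 1.65 (8.54e-06) and Cdk12, which phosphorylates RNA polymerase II, by 0.85 (1.48e-05).

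The list of SR-related and nuclear speckle proteins stood higher than either of these. All 30 could be tested, and 19 were higher and 8 lower, against 26.3% and 35.7% of all genes, with a median log2 fold change of 0.80. Sfswap, a splicing regulator, rose from 7.80 ± 0.779 to 60.6 ± 1.86 CPM (log2 fold change 2.96, adjusted p = 2.34e-09 by edgeR), Srrm3, a relative of Srrm4, from 1.89 ± 0.135 to 19.8 ± 1.55 CPM (3.38, adjusted p = 4.86e-09) and Scaf1 from 8.31 ± 0.168 to 23.8 ± 0.538 CPM (1.52, adjusted p = 6.63e-08). Over the rIgG IP, 13 of the 30 were higher and 2 lower (median 1.28, all genes 0.89), against 2 higher and 1 lower of 12 SR proteins (median 0.14) and 1 higher and 1 lower of 10 other kinases (median 0.60). Of all genes, 17.9% were higher and 5.59% lower there, and the shares of SR proteins higher and of the 30 lower are near these. In the rIgG IP over the Input, 0 members of the 3 lists were called by edgeR.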

How the data were processed

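N2A cells were analysed by RIP-seq in 3 groups of 3 libraries (Input, rIgG IP and p-UPF1 IP). The authors trimmed reads with fastp, aligned them with STAR 2.7.0f and quantified transcripts with Salmon 0.13.1 against GENCODE M22, and deposited estimated counts per transcript, as whole numbers and not normalized. Before this, base calls were demultiplexed with bcl2fastq, and fastp kept reads of at least 35 nt. The authors ran Salmon with its defaults and tested differences with DESeq2 1.22.1. The rounding step and the strand setting that resulted are not given in the sources used here. Short RNase I fragments fall mostly in sequence shared by several transcripts, so that counts per transcript or class depend on Salmon's model.

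Counts were summed per gene symbol, and per gene and transcript type with GENCODE M21, which matched 139921 of 140658 transcripts and all 111 transcripts of the members. Features with a summed count of at least 10 over the 6 libraries compared were tested with edgeR 4.0.16 (TMM scaling, quasi-likelihood test, Benjamini-Hochberg adjustment over all features) in R 4.3.3. Class use was tested with diffSpliceDGE. Intervals are normal 95% intervals of the log2 fold change, and counting intervals of ratios are exact. Depth is given in the report, and a floor of 3 counts was used for bounds. Windows of 35 nt were compared over all annotated transcripts. Scripts were tested on simulated data. The alternatives were DESeq2 1.42.0, RLE scaling, library totals alone, filterByExpr, no filter, all 9 libraries in the fit, a replicate block and each library left out. The members, gene lists and tests were chosen with earlier results of these data known. Named in the text are all 9 members, their most-counted transcripts, up to 3 called transcripts per direction and the 3 genes of smallest p in each list. Other called transcripts, counts by exon and the NMD forms were named after their values were seen.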

Additional observations from a re-analysis of the deposited data

How the results depend on the processing

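Over the Input, 115 of 117 values of the 9 genes under the alternatives kept their direction and their side of the threshold. The exceptions were Srpk2, which reversed to 0.37 on the log2 scale with library totals alone (adjusted p = 0.00792 by edgeR) and to 0.014 without p-UPF1 IP replicate 1, within a leave-one-out range of -0.058 to 0.014. For the classes, 189 of 195 values kept their call, for class use 98 of 108 and for transcripts 197 of 244. Over the rIgG IP, 101 of 117 gene values and 92 of 129 class values did. There Son reversed from 0.20 to -0.073 in DESeq2, -0.074 with RLE scaling and -0.15 with filterByExpr, uncalled in each case. The cause was not tested.

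Of all genes, 2102 were enriched over the rIgG IP, against 1199 in DESeq2, 1362 with the replicate block and 1299 to 2033 with 1 library left out, and 643 were depleted, against 307 at the lowest. In the rIgG IP over the Input 95 were enriched, against 295 in DESeq2, 256 without a filter and 65 to 180 with 1 library left out, and 51 depleted, against 25 to 259 over all alternatives. Of the gene and class combinations, 2334 were enriched over the rIgG IP, against 1462 with RLE scaling, 1045 with the replicate block and 794 to 2069 with 1 library left out (depleted 439, against 173 to 920 over all alternatives). Over the Input, 5968 combinations were depleted, against 3608 with the replicate block and 3898 with library totals alone. Of transcripts, 3644 were enriched and 6908 depleted, against 1075 and 1459 with the replicate block. In the order of the Input levels per length, 4 of 9 members kept their rank with the longest transcript.

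Libraries that share a number deviated from their group means without a common direction (r = -0.01, 0.05 and 0.04 for the 3 pairs of Input and p-UPF1 IP, below 0 for the other pairs of groups), and 4 of these 6 libraries correlated best with their own number, against 0 of 6 for the other comparisons. The numbers were therefore not treated as a pairing. With the replicate block 2851 genes in place of 2919 were enriched over the Input, and of the members' transcripts only Clk1-210, Clk4-203 and Srrm2-203 were called higher and Srrm2-201 lower. The retained-intron class of Son (adjusted p = 0.0598 by edgeR) and the use of that class of Srpk1 (0.0758) were not called with it. Over the rIgG IP, counts of 0 to 9 per member gene but for Son and Srrm2 limit what can be shown.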
